A study of Mus musculus with 21 samples.

Results

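The 7 transcripts described here encode costimulatory receptors of T cells: Tnfrsf4 (OX40), Tnfrsf9 (4-1BB), Tnfrsf18 (GITR), Tnfrsf1b (TNFR2), Cd27, Cd28 and Icos. They were chosen by name, were matched through the gene names in the deposited normalised table, and are 7 of 47643 genes in the count table. All 7 were among the 15300 genes with at least 10 counts over all libraries. The libraries came from CD4+ T cells of Tg4 Tiger Nr4a3-Tocky mice, whose T cells bear 1 transgenic receptor, specific for a peptide of myelin basic protein (MBP), together with a fluorescent Timer protein driven by Nr4a3 and a GFP reporter of Il10. Mice of this genotype made up every group, controls included: 3 were left untreated, and 18 received the strong [4Y] variant of the MBP peptide under the skin at 0.8 µg or 80 µg, with 3 mice for each dose at 4, 12 and 24 h. Per the study's methods the peptide was given without adjuvant, cells came from the spleen, mice of both sexes were used, and the responding cells were sorted by Timer colour: at 4 h the gate was Blue+Red-, at 12 h cells had to be positive for both colours, and at 24 h the Blue-Red+ cells were taken. Time after the peptide and sorted population therefore cannot be told apart, and the gate used for the untreated mice is not given in the sources used here. The cells of the treated mice were selected for the reporter, so their values describe responding cells rather than all CD4+ T cells of those mice.

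Costimulatory receptors bind ligands on other cells and add to the signal of the T cell receptor. CD28 and ICOS belong to the immunoglobulin superfamily, bind B7-family ligands and recruit phosphoinositide 3-kinase, whereas OX40, 4-1BB, GITR, TNFR2 and CD27 belong to the tumour necrosis factor (TNF) receptor superfamily and recruit TRAF adaptors that lead to NF-kB. CD28 and CD27 are carried by resting T cells, and OX40, 4-1BB, GITR and ICOS are known for being acquired or raised after antigen; regulatory T cells also carry GITR, OX40, ICOS and TNFR2.

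The TNF receptor members other than Cd27 lie on the distal part of mouse chromosome 4, in GRCm38 coordinates and GENCODE gene models: Tnfrsf1b at chr4:145213463-145246870 on the minus strand, Tnfrsf9 at chr4:150914562-150946102, Tnfrsf4 at chr4:156013843-156016612 and Tnfrsf18 at chr4:156026164-156028895, the last 3 on the plus strand. Tnfrsf4 and Tnfrsf18 are neighbours separated by 9552 bp. Cd27 lies at chr6:125232622-125237010 on the minus strand. Cd28 (chr1:60716800-60773359) and Icos (chr1:60977927-61000320) lie on the plus strand of chromosome 1 on either side of Ctla4, the inhibitory member of their family, with 113641 bp between Cd28 and Ctla4 and 62095 bp between Ctla4 and Icos. Exons of Tnfrsf18 overlap those of the antisense transcript Gm16008 on the opposite strand, and the strand setting of the counting is not given in the sources used here, so reads of that pair could not be separated with certainty. An exon of Cd27 overlaps the microRNA gene Mir8113 on the same strand, which counting by strand could not separate either.

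Promoter sequences from RefSeq on GRCm38.p6 were found for 5 of the 7 members. The 250 bases before the start are shown for the 3 TNF receptor members whose transcripts were lower with 80 µg than with 0.8 µg at 4 h at an adjusted p under 0.05, since these windows held no base of an annotated exon. They are chr4:150919905-150920154 on the plus strand for Tnfrsf9, before a RefSeq start inside the GENCODE gene, chr4:145246871-145247120 on the minus strand for Tnfrsf1b, and chr6:125237028-125237277 on the minus strand for Cd27. Each is written 5′ to 3′ along the gene, and capitals mark matches, on either strand, to an NF-kB-like motif (GGGNNNNNCC), an AP-1-like motif (TGANTCA) or an NFAT-like motif (GGAAA).
Tnfrsf9: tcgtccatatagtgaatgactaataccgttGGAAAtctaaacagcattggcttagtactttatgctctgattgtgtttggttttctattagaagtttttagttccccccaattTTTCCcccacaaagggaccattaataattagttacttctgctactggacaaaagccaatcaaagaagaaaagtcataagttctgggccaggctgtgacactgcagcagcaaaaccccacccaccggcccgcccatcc
Tnfrsf1b: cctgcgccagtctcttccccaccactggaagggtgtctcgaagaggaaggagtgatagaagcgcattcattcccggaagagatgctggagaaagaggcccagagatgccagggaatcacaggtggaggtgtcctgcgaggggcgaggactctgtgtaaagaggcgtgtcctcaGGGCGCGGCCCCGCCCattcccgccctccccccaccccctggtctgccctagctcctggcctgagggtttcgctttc
Cd27: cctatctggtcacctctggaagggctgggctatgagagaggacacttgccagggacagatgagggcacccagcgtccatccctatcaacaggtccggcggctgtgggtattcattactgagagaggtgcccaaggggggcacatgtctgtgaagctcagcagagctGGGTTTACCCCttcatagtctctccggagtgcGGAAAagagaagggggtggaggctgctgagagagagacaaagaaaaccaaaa
Counted from the start, the Tnfrsf9 window held NFAT-like matches at -220 and -137, the Tnfrsf1b window held 3 overlapping NF-kB-like matches at -77, -76 and -71, and the Cd27 window held NF-kB-like matches at -84 and -83 and an NFAT-like match at -52. Among 32851 mouse windows of 250 bases, 45.8% held the NF-kB-like motif, 6.75% the AP-1-like motif and 55.6% the NFAT-like motif, and matches to the first and the last can overlap. None of the 3 windows held the AP-1-like letters, which says only that they are not in these bases. The other RefSeq start of Tnfrsf9, whose window held 81 bases of annotated exons and is not printed, had NF-kB-like matches at -43 and -42, an AP-1-like match at -15 and NFAT-like matches at -180, -163 and -38.

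The libraries were made with a 3′ tag kit, in which a read marks the end of a transcript, and held 2352800 to 6244279 counts. Values below are normalised counts, meaning counts divided by a size factor for each library, so they compare samples for the same gene and not genes with each other. A count of 0 in these libraries allows up to 1.85 to 4.28 normalised counts, for counting error only. The reporter's gene, Nr4a3, read 12.9 to 37.1 in the 3 controls and 3227 to 3649 at 4 h. It was higher with 0.8 µg than with 80 µg without overlap at each time, with 3450 to 3649 against 3227 to 3408 at 4 h, 444.1 to 769 against 120.6 to 190.5 at 12 h and 31.7 to 93.9 against 4.38 to 14.8 at 24 h. T cell markers (Cd3d, Cd3e, Cd3g, Cd4, Trac, Trbc1 and Trbc2) were all detected in every group, and their summed level ranged from 10600 to 11390 in controls, from 6102 to 7535 at 4 h over both doses, from 4612 to 5930 at 12 h and from 10620 to 12380 at 24 h. In bulk samples, fewer cells of a type and less RNA per cell cannot be told apart. Myeloid markers summed to 7.72 to 129.3 and those of erythroid cells and platelets to 12.9 to 547.1. Dendritic cell and NK cell markers summed to at most 11.4 and 16.6 in any library. Of the CD8 T cell markers, Cd8a was highest at 53.8 ± 6.93 (SD, n = 3) with 0.8 µg at 12 h. Cd8b1 had means from 52.6 with 80 µg at 12 h to 126.9 with 0.8 µg at 24 h. Its mean was 125.2 in controls and 107.7 with 0.8 µg at 12 h. Replicate 3 of the 0.8 µg mice at 12 h stood apart: a chi-square of its counts against its group mates over all genes with enough counts came to 14.8 and 14.4 per degree of freedom, against 3.35 between those mates and at most 9.49 in any other group, and its Nr4a3 was 769 against 444.1 and 471.6. It had the lowest Tnfrsf4, Tnfrsf9, Tnfrsf18, Tnfrsf1b and Icos of its group. Without it, the log2 fold change between doses at 12 h was 0.63 for Tnfrsf4 (adjusted p = 0.0375), -1.88 for Tnfrsf9, -0.19 for Tnfrsf18, -0.92 for Tnfrsf1b (0.0392), -0.35 for Cd27 (0.0924), 0.88 for Cd28 and 1.57 for Icos, so that at an adjusted p of 0.05 Tnfrsf1b entered and Cd27 left, and Icos and Tnfrsf9 remained the 2 members called. Against controls, Icos with 0.8 µg at 12 h rose to 1.06 without it, and all 7 members were then called.

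The comparison between doses asks which transcripts depend on how much antigen the responding cells met. A gene was called when DESeq2's Wald test over all genes gave an adjusted p under 0.05 and the shrunken log2 fold change was beyond 1 in either direction. At 4 h, 4 of the 7 members were called, against 5.85% of the genes tested: Icos and Tnfrsf4 were higher with 80 µg, and Tnfrsf9 and Tnfrsf1b were lower. At 12 h, 2 were called (Icos higher, Tnfrsf9 lower; 2.79% of all genes), and at 24 h only Tnfrsf9 was called, as lower (1.56% of all genes). Called higher were 3.12%, 1.83% and 0.89% of all genes at the 3 times, and called lower were 2.74%, 0.96% and 0.673%. At an adjusted p under 0.05 without the fold threshold, 6, 5 and 3 members differed between doses (12%, 6.27% and 5.93% of all genes), and the 3 mice of each dose did not overlap for 6, 5 and 3 members (28.7%, 19% and 22.4%). The larger dose was thus accompanied by more Icos and Tnfrsf4 and less Tnfrsf9 and Tnfrsf1b at 4 h. The median log2 fold change over the 7 members was -0.60 at 4 h, -0.04 at 12 h and -0.18 at 24 h, beside -0.02, 0.01 and 0.02 over all genes tested.

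**Figure D1:**
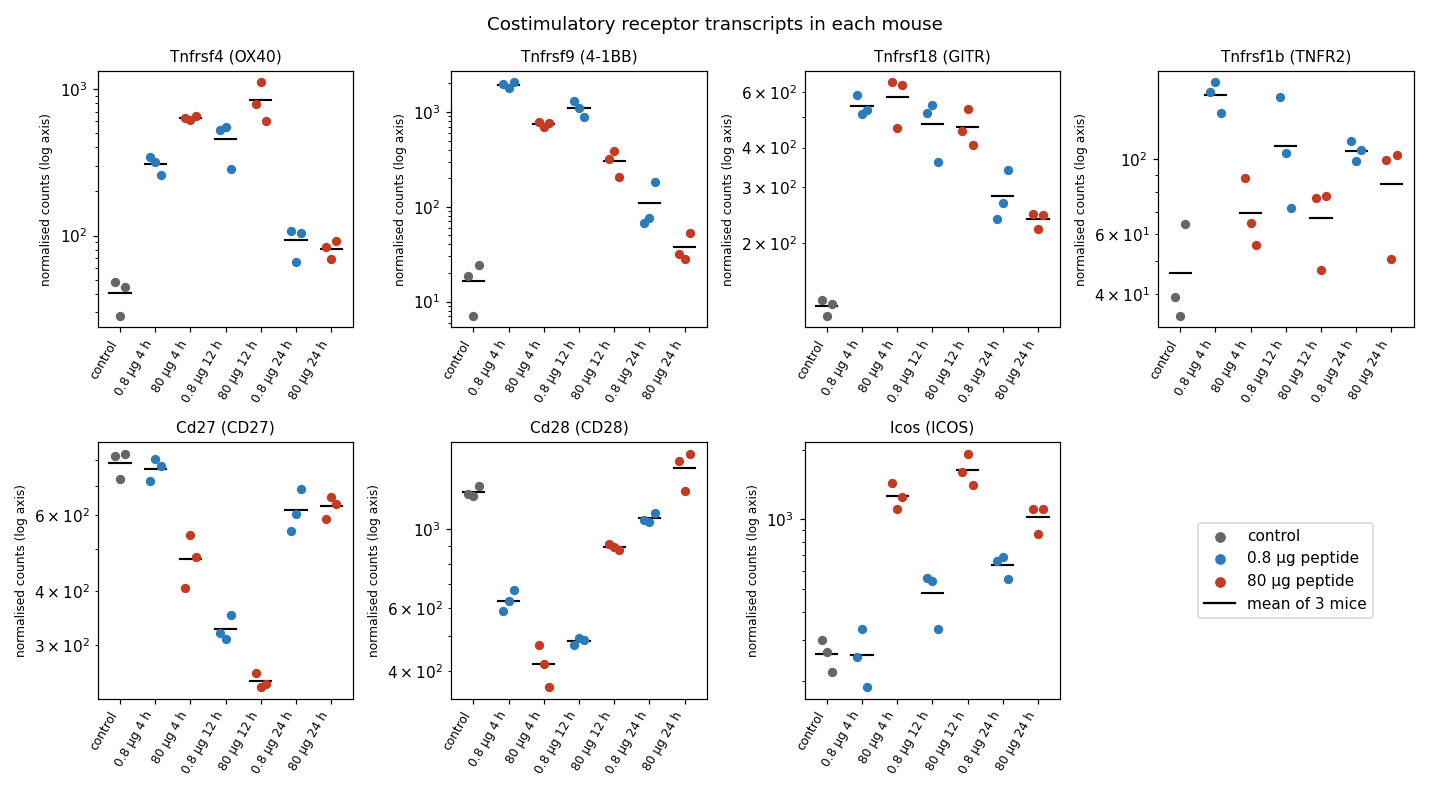
Normalised counts (log axis, with its own range in each panel) of the 7 transcripts, with 1 point per mouse and a bar at the mean of the 3 mice of each group. Tnfrsf9 was highest in the 0.8 µg mice at 4 h (1806 to 2050), Icos in the 80 µg mice at 12 h (1403 to 1925), and Cd28 fell from at least 1242 in controls to 360 to 473 in the 80 µg mice at 4 h.

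Icos encodes ICOS, which binds ICOS ligand on antigen-presenting cells and B cells. It read 301, 267 and 220 normalised counts in the 3 untreated mice. With 0.8 µg it read 253, 336 and 189 at 4 h, 561, 542 and 337 at 12 h, and 663, 689 and 550 at 24 h. With 80 µg it read 1435, 1108 and 1246 at 4 h, 1604, 1925 and 1403 at 12 h, and 1109, 862 and 1114 at 24 h. Every 80 µg mouse lay above every 0.8 µg mouse of its own time, and at 4 h the 0.8 µg mice overlapped the controls. The log2 fold change between doses was 2.27 ± 0.19 (SE; adjusted p = 5.99e-32) at 4 h, 1.76 ± 0.18 (adjusted p = 1.38e-19) at 12 h and 0.69 ± 0.18 (adjusted p = 0.00455) at 24 h, the last under the fold threshold. Against controls, the 0.8 µg mice differed by -0.03 at 4 h (95% interval -0.40 to 0.35), 0.86 at 12 h and 1.26 at 24 h, and the 80 µg mice by 2.24, 2.62 and 1.95. Icos thus reached its highest mean with the larger dose at 12 h, where it overlapped the values at 4 h, and with the smaller dose at 24 h, although the 0.8 µg mice at 12 and 24 h overlapped and that step did not pass the test (0.40, adjusted p = 0.0652).

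Cd28 encodes CD28, the receptor for CD80 and CD86 that resting T cells carry. The controls read 1254, 1242 and 1320. At 4 h the 0.8 µg mice read 588, 627 and 674 and the 80 µg mice 473, 418 and 360. At 12 h the values were 473, 494 and 490 with 0.8 µg and 910, 894 and 874 with 80 µg, and at 24 h they were 1064, 1049 and 1115 with 0.8 µg and 1562, 1282 and 1633 with 80 µg. The doses did not overlap at any of the 3 times, but their order turned: the 80 µg mice were the lower group at 4 h and the higher group at 12 and 24 h. The log2 fold change between doses was -0.60 ± 0.11 at 4 h (adjusted p = 4.5e-07), 0.87 ± 0.10 at 12 h (adjusted p = 2.23e-15) and 0.47 ± 0.10 at 24 h (adjusted p = 8.68e-05), each under the fold threshold. Relative to controls, Cd28 fell by 1.01 at 4 h and by 1.38 at 12 h with 0.8 µg, and by 1.61 at 4 h with 80 µg, all called, the first at the edge of the fold threshold. With 80 µg it was already rising between 4 and 12 h (log2 fold change 1.10, adjusted p = 3.27e-25), whereas with 0.8 µg it was lower at 12 h than at 4 h (-0.37, adjusted p = 0.00144) and rose between 12 and 24 h (1.14, adjusted p = 2.67e-28). At 24 h the 0.8 µg mice remained below every control (-0.24, adjusted p = 0.0386), while the 80 µg mice overlapped the controls (0.23, adjusted p = 0.0432), a difference no larger than the -0.24 by which scaling by total counts would move this comparison. The summed T cell markers, given above, also were lower at 4 and 12 h than in controls and at 24 h, as were B cell markers, of which Ighm made up most: their sum was 1054 to 1600 in controls and at 24 h and 108.5 to 251.2 at 4 and 12 h, with Cd79a at 0 in every library of 3 groups. Among the T cell markers the mean of Trac was higher at 4 h, at 2410 with 0.8 µg and 3027 with 80 µg beside 2321 in controls. The means of Cd3d, Cd3e, Cd3g, Cd4, Trbc1 and Trbc2 were lower there than in controls. The part of either list in the course of Cd28 was not tested.

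**Figure D2:**
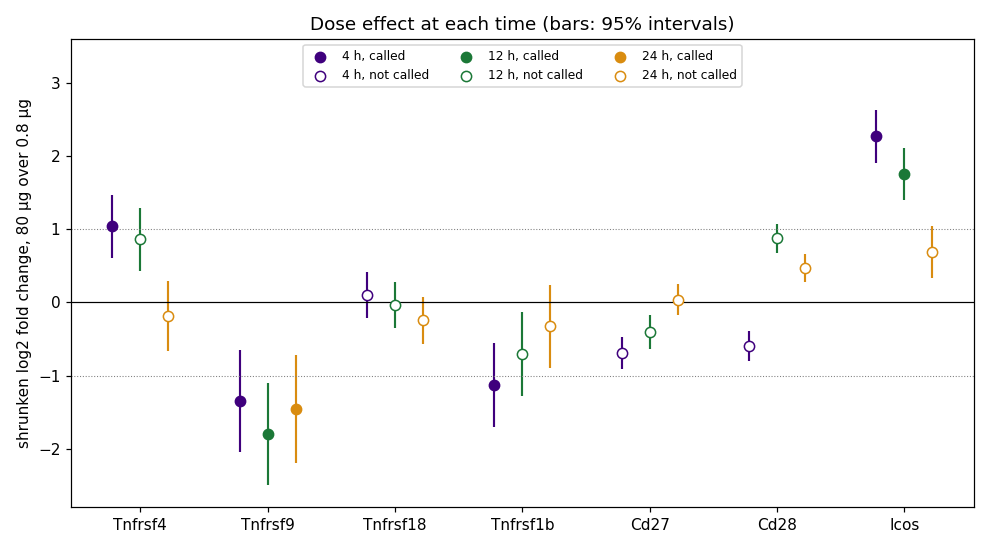
Shrunken log2 fold change of 80 µg over 0.8 µg for each transcript at 4, 12 and 24 h, with bars of 95% intervals, filled points for called values and dotted lines at the fold threshold. Tnfrsf9 lay below 0 at all 3 times, Icos lay above 0, and Cd28 moved from -0.60 at 4 h to 0.87 at 12 h.

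Tnfrsf4 encodes OX40, whose ligand appears on activated antigen-presenting cells. Its counts in controls were 48.4, 28.4 and 44.3. At 4 h the mice given 0.8 µg read 342, 316 and 260 and those given 80 µg read 633, 616 and 653. At 12 h the values were 525, 553 and 286 against 787, 1108 and 608, and at 24 h they were 108, 66.2 and 103 against 83.3, 69.2 and 91.2. The doses were separate at 4 and 12 h and overlapped at 24 h, when all 6 treated mice still lay above the controls. Between doses the log2 fold change was 1.04 ± 0.22 at 4 h (adjusted p = 6.83e-05), 0.86 ± 0.22 at 12 h (adjusted p = 0.00286) and -0.18 ± 0.24 at 24 h (adjusted p = 0.791; 95% interval -0.66 to 0.29). The value at 4 h lay close to the fold threshold and fell to 0.94 without replicate 3 of the 0.8 µg mice. The value at 12 h was called without replicate 2 of the 0.8 µg mice (1.03) and without replicate 3 of the 80 µg mice (1.03). Without replicate 2 of the 80 µg mice it fell to 0.60. Over controls Tnfrsf4 rose 7.58-fold with 0.8 µg and 15.7-fold with 80 µg at 4 h, and 11.3-fold and 20.7-fold at 12 h, as ratios of mean normalised counts. Between 12 and 24 h it fell in both doses, by 2.27 and by 3.32 on the log2 scale.

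Tnfrsf18 encodes GITR, and its gene lies next to Tnfrsf4. Controls read 132, 118 and 128. At 4 h the 0.8 µg mice read 584, 510 and 526 and the 80 µg mice 642, 462 and 631. At 12 h the values were 514, 547 and 360 with 0.8 µg against 450, 531 and 407 with 80 µg, and at 24 h the means were 282 ± 52.1 and 237 ± 13.8 (SD, n = 3). The doses overlapped at every time, and every treated mouse lay above every control. The difference between doses was 0.10 at 4 h (95% interval -0.21 to 0.41), -0.04 at 12 h (-0.35 to 0.28) and -0.25 at 24 h (-0.57 to 0.08), and none of the 3 passed the test (adjusted p = 0.823, 0.956 and 0.492). Over controls it was called with both doses at 4 h (log2 fold change 2.08 and 2.18) and 12 h (1.90 and 1.86) and with 0.8 µg at 24 h (1.15), while the value with 80 µg at 24 h, 0.90 (adjusted p = 2.26e-06), was under the fold threshold. Tnfrsf4 and Tnfrsf18, neighbours on chromosome 4, were thus both called higher than in controls in all treated groups except 80 µg at 24 h, with a called dose difference at 4 h in Tnfrsf4 and an interval around 0 in Tnfrsf18; the difference between the genes was not tested.

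Tnfrsf9 encodes 4-1BB, which is nearly absent from resting T cells. The controls read 18.6, 7.1 and 24.3. At 4 h the 0.8 µg mice read 1976, 1806 and 2050 and the 80 µg mice 785, 687 and 757. At 12 h the values were 1312, 1089 and 896 against 317, 390 and 205, and at 24 h they were 67.2, 75.5 and 184 against 31.8, 28.0 and 53.0. The smaller dose thus went with the higher counts at all 3 times, without overlap, and all 7 groups were separate in the order of their means. Between doses the log2 fold change was -1.35 ± 0.35 at 4 h (adjusted p = 0.00225), -1.79 ± 0.35 at 12 h (adjusted p = 3.02e-05) and -1.45 ± 0.38 at 24 h (adjusted p = 0.00401). In ratios of means, 0.8 µg exceeded 80 µg 2.62-fold, 3.62-fold and 2.90-fold. Over controls, Tnfrsf9 was 116.8-fold higher with 0.8 µg and 44.6-fold higher with 80 µg at 4 h, and 6.54-fold and 2.26-fold higher at 24 h. The last of these was called (log2 fold change 1.11, adjusted p = 0.0179) but fell to 0.69 (adjusted p = 0.152) without control replicate 2 and to 0.85 (adjusted p = 0.152) without replicate 3 of the 80 µg mice.

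At 24 h the call of Tnfrsf9 between doses depended on 1 mouse. Without replicate 3 of the 0.8 µg group the log2 fold change was -0.90 with an adjusted p of 0.094, no member was called, and the remaining 0.8 µg mice still lay above all 3 mice given 80 µg. That mouse had the highest Tnfrsf9 (184 against 67.2 and 75.5), Tnfrsf18 (340 against 238 and 268) and Cd27 (689 against 550 and 602) of its group. It had the lowest Icos (550 against 663 and 689) and lay between its group mates for Tnfrsf4 (103) and Tnfrsf1b (106). It also had the highest Cd28 of its group (1115 against 1064 and 1049), the highest Nr4a3 (93.9 against 37.0 and 31.7) and the highest level of each of 8 regulatory T cell markers (Foxp3, Ikzf2, Ikzf4, Lrrc32, Gpr83, Nrp1, Itgae and Il2ra), with Foxp3 at 193 against 75.9 and 48.5. Nr4a3 was higher with 0.8 µg than with 80 µg at all 3 times, as Tnfrsf9 was. The part of these genes in the values of Tnfrsf9 was not tested.

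The regulatory T cell markers did not move as 1 group, and their sum turned on Il2ra, the interleukin 2 receptor chain that activated T cells also carry. In controls the sum of all 8 was 339.7 to 648.3, and 314.4 to 572.1 without Il2ra. At 4 h it was 1205 to 1822 with 0.8 µg and 4428 to 4571 with 80 µg, above every control, but without Il2ra it was 173.6 to 207.2 and 262.7 to 319.8, so that the 0.8 µg mice lay below every control. Both sums were thus lower with 0.8 µg than with 80 µg at 4 h. Of the list, Ikzf4 (95.9 against 8.35, adjusted p = 2.36e-15) and Nrp1 (61.9 against 7.18) were called higher with 80 µg at 4 h. Il2ra (4206 against 1323) and Foxp3 (17.8 against 3.92) were also called higher there, and Lrrc32 (17.2 against 71.7) was called lower. The Foxp3 mean with 0.8 µg lay near the level that a count of 0 allows in those libraries (3.03 to 3.95). The sum of all 8 at 12 h was 1277 to 1656 with 0.8 µg and 2238 to 2343 with 80 µg, whereas without Il2ra the order was turned, at 541.3 to 585.2 and 314.7 to 354.5. There Ikzf2 was called lower with 80 µg (121.1 against 395.8; adjusted p = 4.24e-14), and Nrp1 (46.3 against 14.0) and Il2ra (1968 against 887.2) were called higher. At 24 h both sums were higher with 0.8 µg, at 1762 to 3053 against 1170 to 1369 for all 8 and 1498 to 2746 against 864.7 to 1044 without Il2ra. Most of that difference was Ikzf2 (584 with 80 µg against 1454; adjusted p = 3.03e-09), the only marker of the 8 called between doses at 24 h (DESeq2 gave no adjusted p for Itgae). The means of Ikzf4 (109.6 against 184.5, without overlap; adjusted p = 0.0912), Lrrc32 (21.5 against 42.0), Itgae (6.17 against 16.4), Gpr83 (44.8 against 60.3), Nrp1 (110.1 against 124) and Foxp3 (92.9 against 105.8) were also lower with 80 µg, and that of Il2ra was higher (314.1 against 262.2). Over controls at 24 h, Foxp3, Ikzf2, Nrp1, Lrrc32 and Il2ra were called higher with both doses, and Ikzf4, Itgae and Gpr83 with neither. The mean of Gpr83 was 44.8 with 80 µg and 60.3 with 0.8 µg, beside 50.3 in controls. Tnfrsf4, Tnfrsf18, Tnfrsf1b and Icos, which regulatory T cells carry, had higher means than controls with both doses. All of them were called with 0.8 µg but only Icos with 80 µg, where Tnfrsf1b overlapped the controls. The part of the markers in those values was not tested.

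Tnfrsf1b encodes TNFR2, a receptor for TNF and lymphotoxin alpha. Controls read 39.2, 34.5 and 64.2. At 4 h the 0.8 µg mice read 157, 169 and 137 and the 80 µg mice 88.0, 64.9 and 55.7. At 12 h the values were 153, 105 and 71.6 against 76.7, 47.0 and 77.8, and at 24 h they were 113, 98.8 and 106 against 99.7, 50.8 and 103. The doses were separate at 4 h only. The log2 fold change between doses was -1.13 ± 0.29 at 4 h (adjusted p = 0.00175), -0.70 ± 0.29 at 12 h (adjusted p = 0.155) and -0.32 ± 0.29 at 24 h (adjusted p = 0.649). The value at 4 h fell just inside the fold threshold, to -0.99, without replicate 3 of the 80 µg mice. With 1 library left out, the value at 12 h ranged from -0.92 (0.8 µg replicate 3) to -0.40 (0.8 µg replicate 1). With 0.8 µg Tnfrsf1b was called higher than in controls at all 3 times (1.72, 1.25 and 1.19), and with 80 µg it was called at none, with values of 0.59, 0.54 and 0.87. The last of these (adjusted p = 0.0138) was called without control replicate 3 (1.15) and without replicate 2 of the 80 µg mice at 24 h (1.14). In the order of its group means, each group overlapped the next.

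Cd27 encodes CD27, a receptor of naive and memory T cells that binds CD70. Controls read 818, 725 and 829. At 4 h the 0.8 µg mice read 717, 805 and 778, overlapping the controls, and the 80 µg mice read 406, 538 and 479. At 12 h the values were 321, 311 and 352 against 259, 241 and 244, and at 24 h they were 550, 602 and 689 against 587, 659 and 636. Cd27 was thus lower with 80 µg at 4 and 12 h and overlapped between doses at 24 h. The log2 fold change was -0.69 ± 0.11 at 4 h (adjusted p = 2.72e-08), -0.40 ± 0.12 at 12 h (adjusted p = 0.0182) and 0.04 ± 0.11 at 24 h (adjusted p = 0.923), each under the fold threshold. Against controls the 0.8 µg mice differed by -0.04 at 4 h (95% interval -0.26 to 0.17), and Cd27 fell by 1.27 at 12 h with 0.8 µg and by 1.67 at 12 h with 80 µg. At 24 h every treated mouse remained below every control, by -0.36 and -0.33 on the log2 scale (adjusted p = 0.00367 and 0.00824). As for Cd28, the T cell and B cell marker sums were lower at 4 and 12 h, and their part was not tested.

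**Figure D3:**
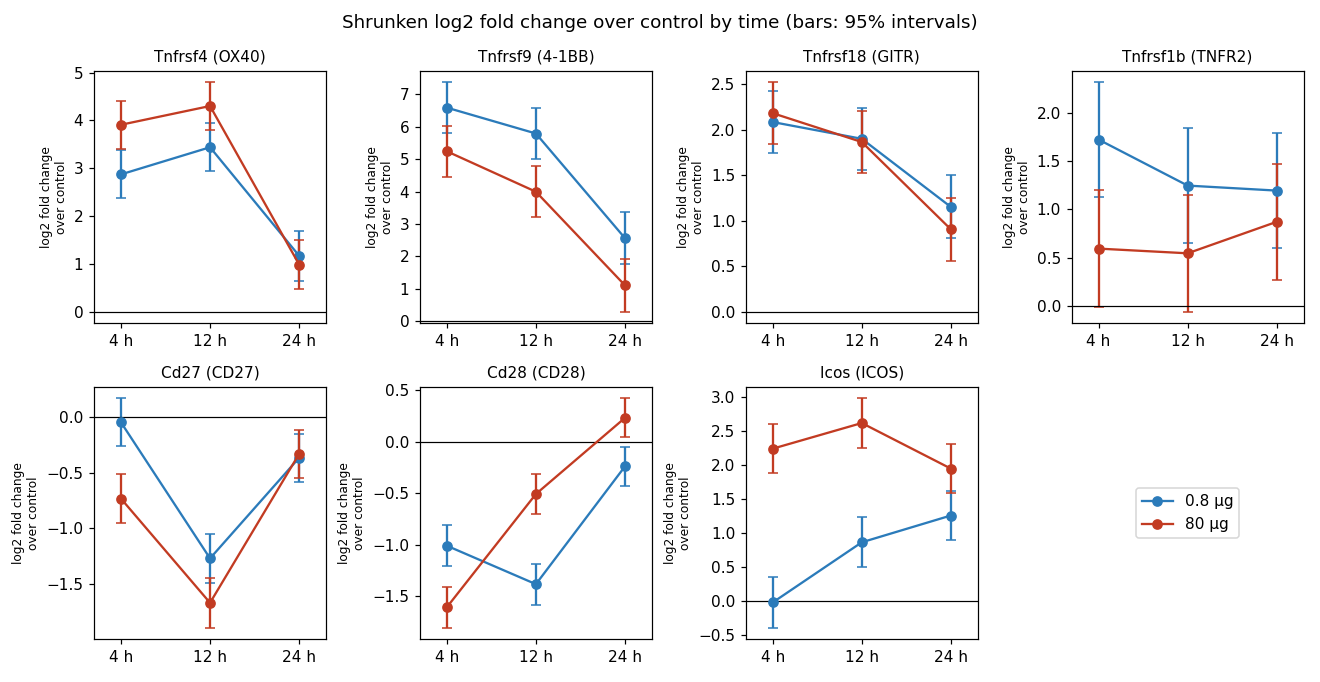
Shrunken log2 fold change over the 3 untreated mice at 4, 12 and 24 h for each dose, with bars of 95% intervals; the vertical range differs between panels, and all points share the same controls. Cd27 stayed near 0 at 4 h with 0.8 µg (-0.04) and was at -0.73 with 80 µg, and Cd28 was lowest at 12 h with 0.8 µg (-1.38) and at 4 h with 80 µg (-1.61).

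Whether the dose effect changed with time was tested directly, with DESeq2's likelihood ratio test of the dose by time interaction on the 18 treated mice. It was called for 4 of the 7 members, against 10.4% of all genes tested: Cd28 (adjusted p = 6.12e-19), Icos (3.51e-07), Cd27 (0.000796) and Tnfrsf4 (0.00653). It was not called for Tnfrsf1b (adjusted p = 0.401), Tnfrsf18 (0.656) or Tnfrsf9 (0.84). For Tnfrsf4 the adjusted p rose to 0.0529 without replicate 1 of the 0.8 µg mice at 24 h, and for Tnfrsf9 it fell to 0.0683 without replicate 3 of that group. Of the called members, only Cd28 had dose differences of opposite sign that passed an adjusted p of 0.05.

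Against the untreated mice, the members were called often, as were genes at large. With 0.8 µg, 5 of 7 were called at 4 h (40.7% of all genes), 6 at 12 h (37.7%) and 5 at 24 h (17.3%). With 80 µg the counts were 5 at 4 h (43.5%), 5 at 12 h (37.9%) and 2 at 24 h (20.2%). Tnfrsf4, Tnfrsf9 and Tnfrsf18 were called higher with both doses at 4 and 12 h, and Cd28 at 4 h and Cd27 at 12 h were called lower with both. At 24 h with 80 µg, Tnfrsf9 and Icos were called. The median over the members ranged from 0.90 to 2.18 across the 6 comparisons, beside -0.15 to 0 over all genes tested. These comparisons share the same 3 controls.

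From 4 to 12 h, 1 of the 7 members was called with 0.8 µg and 2 with 80 µg. From 12 to 24 h, 3 were called with each dose. With 0.8 µg, only Cd27 was called from 4 to 12 h, as lower (log2 fold change -1.22; 20.5% of all genes), and from 12 to 24 h Tnfrsf9 (-3.23) and Tnfrsf4 (-2.27) were called lower and Cd28 (1.14) higher (26.6% of all genes). With 80 µg, Tnfrsf9 (-1.25) was called lower and Cd28 (1.10) higher from 4 to 12 h (24.8% of all genes), and from 12 to 24 h Tnfrsf4 (-3.32) and Tnfrsf9 (-2.89) were called lower and Cd27 (1.34) higher (27.2% of all genes). The sorted Timer population differs at each step.

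In the order of group means, Tnfrsf4 spanned 20.7-fold from controls to the 80 µg mice at 12 h, and Tnfrsf9 spanned 116.8-fold from controls to the 0.8 µg mice at 4 h. Cd27 spanned 3.19-fold, from 248 with 80 µg at 12 h to 791 in controls, and Cd28 spanned 3.58-fold, from 417 with 80 µg at 4 h to 1492 with 80 µg at 24 h. For Icos the 3 groups given 80 µg held the highest means, of 1028 to 1644, followed by 0.8 µg at 24 h (634) and 12 h (480), with the controls (262.5) and 0.8 µg at 4 h (259) overlapping at the bottom.

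The transcripts most like each member were sought among 8752 genes by Pearson's r of the deposited rlog values over the 21 libraries; these points share groups and sorting, so r describes likeness only. Tnfrsf9 was most like Trib1 (r = 0.982) and Bzw2 (0.961), Tnfrsf4 was most like Fkbp1a (0.968) and Pfdn4 (0.967), and Tnfrsf18 was most like Prps1 (0.967) and Eif5a (0.965). Cd27 was most like Phf20l1 (0.95) and Wdr26 (0.939), and Cd28 was most like Spn (0.936) and Gm5547 (0.935). Icos was most like Gm14005 (0.954) and Ctla4 (0.93), and Tnfrsf1b reached no more than 0.795, with Heg1.

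Ctla4, the family member between Cd28 and Icos that restrains T cells, read 7.1 to 31.4 in controls, 1.08 to 5.27 with 0.8 µg at 4 h and 249.9 to 417 with 80 µg at 4 h. It was called higher with 80 µg at 4 h (adjusted p = 4.69e-21) and at 12 h (2.40, adjusted p = 1.38e-05). The 0.8 µg libraries at 4 h lay near the level that a count of 0 allows (3.03 to 3.95), so no fold change is given there. Of the other CD28 family genes, Ctla4, Pdcd1 and Btla, only Ctla4 was called between doses.

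**Figure D4:**
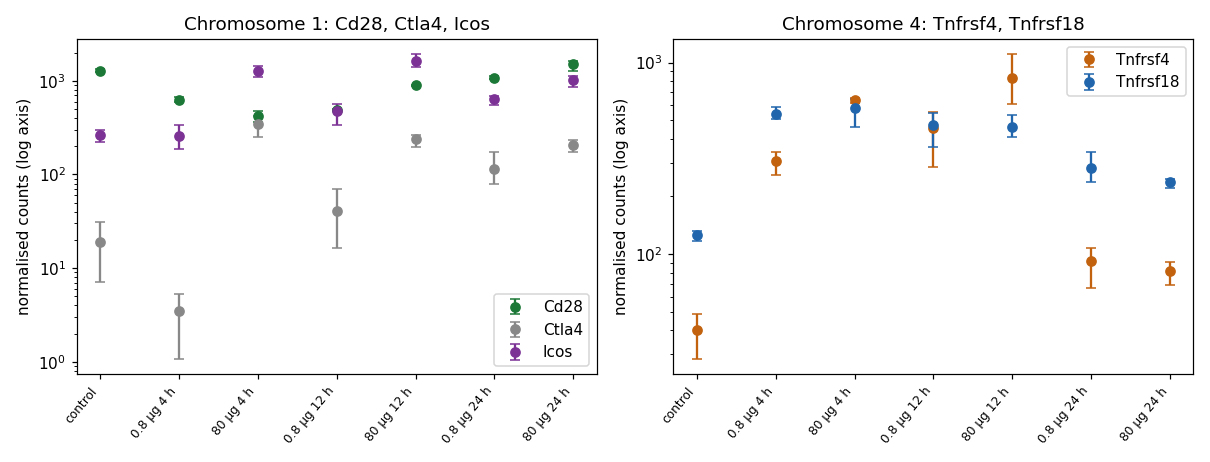
Mean normalised counts (log axis) of neighbouring genes in the 7 groups, with bars from the lowest to the highest of 3 mice; levels of different genes are not comparable. At 4 h Icos and Ctla4 were higher with 80 µg than with 0.8 µg while Cd28 was lower, and Tnfrsf4 was separate between doses while Tnfrsf18 overlapped.

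Among 9 genes for ligands of these receptors, Tnfsf18, Cd70 and Cd80 did not pass the filter on low counts. Tnf and Lta, which encode TNF and lymphotoxin alpha, ligands that T cells themselves make, were called higher than in controls with both doses at 4 and 12 h. Tnf was at 1081 ± 199 (SD, n = 3) with 0.8 µg and 876 ± 199.7 with 80 µg at 4 h. Icosl, the gene of ICOS ligand, was called lower than in controls with both doses at 4 and 12 h. Cd86 was called lower than in controls with 80 µg at 12 h and higher with 0.8 µg at 24 h. Lta read 504 ± 26.2 with 0.8 µg and 266.2 ± 45.6 with 80 µg at 4 h (adjusted p = 2.11e-05), a log2 difference of -0.92 that did not reach the threshold of size. Between doses no ligand was called at 4 or 12 h, and at 24 h Lta was called lower with 80 µg (29.5 ± 4.29 against 81.8 ± 5.07; log2 fold change -1.46, adjusted p = 1.46e-07), with 2 of the ligands tested there. Of 21 other TNF receptor superfamily genes, 11 were tested at 4 h. Tnfrsf26 was called higher (means of 19.8 against 1.76, beside 150.5 in controls) and Tnfrsf1a lower with 80 µg. The Tnfrsf26 mean with 0.8 µg lay under the level that a count of 0 allows in those libraries (3.03 to 3.95). At 12 h Tnfrsf25 and Tnfrsf26 were higher and Tnfrsf19 lower, and at 24 h none was called. Tnfrsf1a, the TNF receptor related to Tnfrsf1b, read 39.9 to 52.5 with 0.8 µg and 7.75 to 13.9 with 80 µg at 4 h, so both TNF receptor transcripts were lower with the larger dose at that time.

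Of 22 genes for TRAF adaptors and NF-kB signalling, Rel, an NF-kB subunit, was the only one called between doses at 4 h and was lower with 80 µg (1510 ± 130 against 3126 ± 269; log2 fold change -1.05, adjusted p = 1.35e-14). At 12 h Rel (-1.39) and Tnfaip3, an inhibitor of NF-kB (-1.22), were called lower, and at 24 h none was called. The median of the list was 0.07, -0.15 and -0.08 at the 3 times, beside -0.02, 0.01 and 0.02 over all genes. Of 18 genes of the phosphoinositide 3-kinase and NF-kB arm below CD28 and ICOS, 17 were tested. Malt1, a protease that relays antigen receptor signals to NF-kB, was called higher with 80 µg at 4, 12 and 24 h (log2 fold change 3.66, 2.71 and 1.19), and Lck, the kinase that starts T cell receptor signalling, was called lower at 4 h (-1.09). The medians of this list were 0.06, 0.08 and 0.20.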

How the data were processed

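QuantSeq 3′ libraries of 21 mice were counted per gene by the authors. Per the study's methods and processing notes, reads were aligned with STAR 2.5.2a to mm10 and counted with HTSeq; annotation release, strand setting and use of molecular identifiers are not given in the sources used here. The deposited counts are whole numbers with no normalization. The deposited log2 values are the authors' DESeq2 rlog values and were used for likeness and 1 alternative.

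The 7 members, the gene lists and the tests were chosen with earlier results of these data known. In R 4.3.3, genes with at least 10 counts over all samples were fitted in DESeq2 1.42.0 with all 21 libraries and 1 term for group. Wald tests were adjusted by Benjamini-Hochberg over all genes tested, shrinkage of log2 fold changes used the normal prior, and a call required an adjusted p under 0.05 with an absolute log2 fold change above 1. The dose by time interaction was tested by likelihood ratio on the 18 treated mice. Each library is 1 mouse per the methods, and the replicate number carries no pairing in the labels. edgeR 4.0.16, limma 3.58.1, other filters, thinned libraries, the replicate block and leaving out each library were alternatives. The scripts were tested on simulated data. Named were all members, the 2 genes most like each (at least 20 normalised counts on average), genes within 100 kb, and up to 3 called genes per list and comparison.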

Additional observations from a re-analysis of the deposited data

Results flagged for a closer look

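The dose effect differed between 4, 12 and 24 h, by the test of the dose by time interaction, for 4 members: Tnfrsf4 (adjusted p = 0.00653), Cd27 (0.000796), Cd28 (6.12e-19) and Icos (3.51e-07). The same test separated the times for 7 genes of the lists that were also called between doses: Ctla4 (adjusted p = 3.93e-12), Lck (7.71e-28), Lta (3.53e-05), Malt1 (8.28e-16), Tnfaip3 (0.0326), Tnfrsf1a (2.81e-06) and Tnfrsf26 (0.00491).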

How the results depend on the processing

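Of the 44 called log2 fold changes of members, none changed sign under any alternative, and 8 lost the call under at least 1; of the 47 that were not called, 26 gained it, most often with the adjusted p alone as the criterion. That criterion gave 5 members between doses at 12 h and 3 at 24 h, 7 for 80 µg at 24 h against control, 4 and 5 for the steps of 0.8 µg to 12 and 24 h, and 6 for 80 µg from 12 to 24 h. It also raised the count over all genes from 635 to 1301, 311 to 699 and 151 to 573 between doses at 4, 12 and 24 h, from 2185 to 4551 and 2615 to 5048 for 0.8 and 80 µg at 24 h against control, from 2532 to 4822 and 3434 to 5689 for the steps of 0.8 µg, and from 3130 to 5415 and 3601 to 5907 for those of 80 µg. Fitting the 6 samples compared alone gave 145 and 83 genes between doses at 12 and 24 h. limma on rlog values gave 1 member for 80 µg at 24 h against control. Leaving out 1 library gave 0 to 1 members between doses at 24 h, 1 to 4 for 80 µg at 24 h against control, 1 to 2 for 0.8 µg from 4 to 12 h and 1 to 3 for 80 µg from 4 to 12 h; the single library that ended a call is named in the report for Tnfrsf4, Tnfrsf9 and Tnfrsf1b. Cd28 with 0.8 µg at 4 h against control (-1.01) lay at the fold threshold and was -0.9933 in edgeR, -0.9975 in limma, -0.9895 with only the 6 samples compared, and -0.98, -0.96 and -0.9971 without control replicate 3 and replicates 1 and 2 of the 0.8 µg mice; Cd28 with 80 µg from 4 to 12 h was 0.9998 without replicate 3 of the 4 h mice; Tnfrsf1b with 0.8 µg at 12 h fell to 0.95 without replicate 1 of that group, and Tnfrsf4 with 0.8 µg at 24 h to 0.94 without control replicate 2. Tnfrsf4 with 80 µg at 24 h (0.99) gained the call at 1.12, 1.03 and 1.10 without control replicates 1 and 3 and replicate 2 of that group. It was also called in edgeR (1.04), with thinned libraries (1.04) and without shrinkage (1.02).

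Values that were not called and changed sign were all near 0. With thinned libraries Cd27 between doses at 24 h was -0.0388 and Icos with 0.8 µg at 4 h against control was 0.0452, and in limma Tnfrsf1b with 0.8 µg from 12 to 24 h was 0.0129. Leaving out 1 library gave -0.19 to 0.0818 for Tnfrsf18 between doses at 12 h, -0.0373 to 0.12 for Cd27 between doses at 24 h, -0.23 to 0.17 for Icos and -0.10 to 0.0024 for Cd27 with 0.8 µg at 4 h against control, and for Tnfrsf1b -0.27 to 0.25 with 0.8 µg from 12 to 24 h and -0.19 to 0.16 with 80 µg from 4 to 12 h. The cause was not tested.

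For same-numbered mice the r of deviations was -0.18 to 0.21 over 13 comparisons, with every pair over 0.1 in 0 of them. With 3 mice per group this cannot exclude that same-numbered mice were sorted or processed together. The replicate block gave 4, 2 and 1 members and 611, 288 and 138 genes between doses at 4, 12 and 24 h. It gave 4 members for the interaction. TMM scaling moved no comparison by more than 0.035 on the log2 scale, and scaling by total counts would move them by -0.238 to 0.15. Depth limits values near the level that a count of 0 allows, such as Ctla4 with 0.8 µg at 4 h.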
